A study of Mus musculus with 14 samples.

Results

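Small nucleolar RNAs (snoRNAs) were followed across 7 groups of mouse embryonic stem cells. The features were the rows of the gene count tables whose Ensembl ID carries a symbol that begins with Snord or Snora and a number. There were 111 such rows among the 37991 IDs of each table. Of these, 72 were C/D snoRNAs (Snord) and 39 were H/ACA snoRNAs (Snora). A further 1081 rows that the annotation also types as snoRNA, mostly unnamed gene models, were kept apart as a comparison.

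All cells were J1 mouse embryonic stem cells with the strain label 129S4/SvJae, and every library was made from poly(A)-selected RNA. Experiment 1 crossed genotype with treatment. It held wild-type cells and Dnmt-TKO cells, which lack the DNA methyltransferases Dnmt1, Dnmt3a and Dnmt3b (TKO below), each given either the vehicle DMSO or PRT4165, an inhibitor of the polycomb repressive complex PRC1. Experiment 2 held 3 groups with no treatment named: wild type, Dnmt-TKO, and Tet1-KO Dnmt-TKO cells, which also lack the methylcytosine oxidase Tet1. Each group had 2 libraries, 14 in all. Nothing in the labels ties the 2 libraries to separate cultures, and the spread behind each p-value may therefore be technical. The sources used here do not give the inhibitor's dose or duration, or whether each knockout line is a single clone.

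A snoRNA is a short nuclear RNA that pairs with ribosomal RNA and directs a modifying enzyme to one nucleotide. C/D snoRNAs bind fibrillarin (Fbl) with Nop56, Nop58 and Snu13 and guide ribose methylation. H/ACA snoRNAs bind dyskerin (Dkc1) with Gar1, Nhp2 and Nop10 and guide pseudouridylation. Most mammalian snoRNAs sit inside introns of a host gene, often one for a ribosomal protein or translation factor, and are trimmed out of the excised intron; other hosts are noncoding genes of the Snhg type. A mature snoRNA carries no poly(A) tail. Poly(A) selection is therefore not designed to retain it, and a count in such a row says only that reads were assigned there. What molecule the reads came from was not tested.

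Sequences are shown for features whose values the text turns on, with the class-defining boxes in capitals. They are transcript sequences of GENCODE release M21 (GRCm38), written 5′ to 3′ in DNA letters. For the C/D class the capitals mark a C box TGATGA in the first 25 bases and a D box CTGA in the last 20. Snord104 had one of the highest levels and fell with the inhibitor, Snord49a and Snord49b share a noncoding host that rose, and Snord64 and Snord107 lie in an imprinted gene region.
Snord104: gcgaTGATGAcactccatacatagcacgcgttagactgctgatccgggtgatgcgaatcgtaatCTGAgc
Snord49a: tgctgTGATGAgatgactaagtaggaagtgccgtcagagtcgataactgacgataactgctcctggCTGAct
Snord49b: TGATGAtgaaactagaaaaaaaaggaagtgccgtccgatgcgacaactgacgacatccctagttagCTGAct
Snord64: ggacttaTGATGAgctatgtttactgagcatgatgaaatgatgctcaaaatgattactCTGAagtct
Snord107: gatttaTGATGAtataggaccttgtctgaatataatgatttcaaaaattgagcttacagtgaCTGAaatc

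On the transcript strand, TGATGA was found in that window of 48 of the 72 C/D features (66.7%) and CTGA in 70 (97.2%), with both in 46 (63.9%). The 5 sequences above hold both. Among 3290 microRNA and small nuclear RNA transcripts of the same length range, 0.152% held the first motif, 6.72% the second and 0.0304% both. The C/D features were 64 to 238 bases long, with a median of 78. Snord17 was the longest.

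For the H/ACA class the capitals mark ACA placed 3 bases before the end. Snora16a and Snora24 lie in noncoding hosts of the Snhg type, and Snora41 lies in the gene for the translation elongation factor Eef1b2.
Snora16a: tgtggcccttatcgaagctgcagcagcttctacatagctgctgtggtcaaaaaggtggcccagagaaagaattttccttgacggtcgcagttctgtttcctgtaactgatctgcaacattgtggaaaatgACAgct
Snora24: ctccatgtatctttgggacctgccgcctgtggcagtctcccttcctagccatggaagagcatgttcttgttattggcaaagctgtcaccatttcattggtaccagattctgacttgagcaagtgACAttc
Snora41: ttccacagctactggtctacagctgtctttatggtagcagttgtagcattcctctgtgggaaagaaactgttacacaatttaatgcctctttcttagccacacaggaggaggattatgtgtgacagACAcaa

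This box stood at that place in 32 of the 39 H/ACA features (82.1%), in no C/D feature and in 2.46% of the microRNA and small nuclear RNA transcripts. H/ACA features were 121 to 205 bases long, with a median of 132. A match describes the letters in the window and is not evidence of binding. Sequences were compared for most but not all of the 111 features, and no 2 of those compared were the same.

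A host was taken as the shortest gene of the tables that contains the snoRNA on the same strand, or, where the tables hold none, the shortest such gene of the annotation. By this rule 76 features had a protein-coding host, 29 a noncoding host and 6 had none. A count was present in at least 1 library for 68 features, 44 C/D and 24 H/ACA. The other 43 had 0 counts in all 14 libraries. For a count of 0, 3 expected counts were taken as an approximate upper limit. That limit comes to between 0.0736 and 0.132 CPM (counts scaled to a common library size with TMM factors) in a library. The uncounted rows lay mostly on exons of other genes: of 59 features that overlap a same-strand exon of another gene, 34 (57.6%) had no count, against 9 of 52 (17.3%) with no such overlap. Examples are Snord47, Snord78 and Snord80 in Gas5, Snora73a in Snhg3 and Snord22 in Snhg1. For such rows the limit of 3 counts holds only if reads there could be assigned to the snoRNA, which was not tested. For the 25 counted features on a shared exon, how reads there were assigned is not known here, so their values are less certain. Only 5 features overlap an exon on the other strand. The sources used here do not give the strand setting of the counting.

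Libraries held 23354015 to 41844823 counts, and the snoRNA features took 0.00126% to 0.00731% of them. Replicates of every group differed by more than sampling noise, so none was a repeat deposit. The targeted genes followed the labels: Dnmt1, Dnmt3a and Dnmt3b were lower in TKO than in wild-type cells in both experiments (log2 fold changes of -0.97 to -2.14), and Tet1 in Tet1-KO TKO cells was at -2.19 (log2 fold change) against TKO cells. Counts there were reduced but not 0. The 8 embryonic stem cell markers were present in every library, with a summed level of 2757 to 6155 CPM, against 5.37 to 17.3 CPM for 8 fibroblast markers. Embryonic stem cell markers were lower with the inhibitor for 6 of 8 in wild-type and 5 of 8 in TKO cells. The shares called lower over all genes tested were 18.7% and 19.6%. The part of these markers in the snoRNA results was not tested. In bulk RNA, fewer cells of a type and less RNA per cell cannot be told apart.

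The summed level of all snoRNA features was lower in every inhibitor library than in every vehicle library. Wild-type vehicle libraries were at 44.7 and 37.8 CPM (1250 and 1215 counts), and wild-type inhibitor libraries at 13.5 and 16.1 CPM (472 and 395 counts). TKO vehicle libraries were at 40.7 and 41.3 CPM (1208 and 1234 counts), and TKO inhibitor libraries at 16.9 and 20 CPM (617 and 643 counts). The sums with and without inhibitor did not overlap in either genotype. The mean sum with the inhibitor was 2.79-fold lower in wild-type cells and 2.22-fold lower in TKO cells. With 2 libraries a group no permutation test of a single sum can reach the 0.05 threshold, so these sums are given without a p-value. The C/D features were 2.48-fold and the H/ACA features 3.3-fold lower in wild-type cells, and 2.09-fold and 2.46-fold lower in TKO cells. The hosts of the counted features did not share this fall: their sums were 38120 and 36563 CPM in wild-type vehicle libraries and 41968 and 40778 CPM with the inhibitor. In TKO cells they were 33497 and 33877 CPM with vehicle and 37141 and 36089 CPM with the inhibitor.

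**Figure D1:**
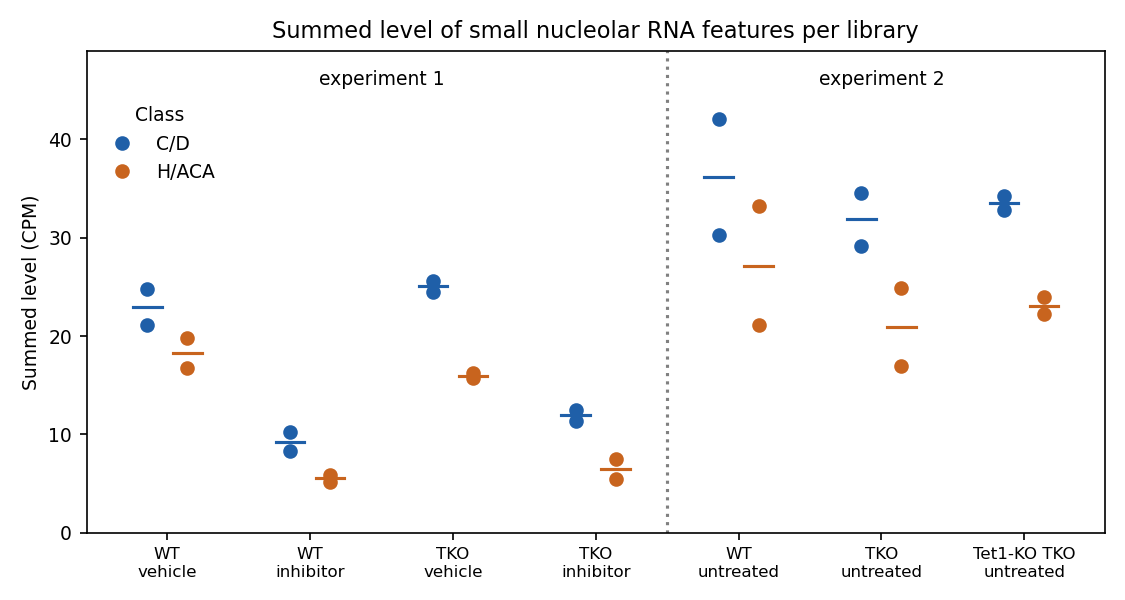
Summed level of the C/D and H/ACA features in each library (vertical axis, CPM, scaled within each experiment), by group (horizontal axis); points are libraries and short lines the means of 2. In experiment 1 both classes were lower in all inhibitor libraries than in all vehicle libraries; in experiment 2 the 2 wild-type libraries lie furthest apart.

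In the untreated groups of experiment 2, wild-type libraries had sums of 51.4 and 75.3 CPM (replicates 1 and 2), TKO libraries 46.2 and 59.4 CPM, and Tet1-KO TKO libraries 55.1 and 58.2 CPM. The range of the wild-type libraries held both Tet1-KO TKO libraries and 1 TKO library. Replicate 2 was the higher in each group, and at either number TKO was below wild type. The experiments were scaled separately, and levels are not compared across them.

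In wild-type cells the inhibitor lowered snoRNA features of both classes. Of 35 features that passed the filter on low counts, 25 were lower and 0 higher at an adjusted p under 0.05 (edgeR quasi-likelihood test, Benjamini-Hochberg adjustment over 16711 genes), where 18.7% of all genes tested were called lower and 19% higher. No feature was higher at an unadjusted p under 0.05 either, and DESeq2 called 20 lower and 0 higher. The median log2 fold change was -1.69, with a range of -4.27 to 0.83, against 0.01 over all genes tested. Passing the filter can depend on the vehicle groups, so a feature kept for its vehicle level alone had to be lower with the inhibitor. With the filter set on the libraries of experiment 2 instead, an alternative added after the data were seen, 27 of 40 features were lower and 0 higher, against 18.3% and 18.5% of all genes. Without any filter, among the 66 features with a count in experiment 1, 42 had both inhibitor libraries below both vehicle libraries (22% of all genes with a count), 3 had both above (26.6%) and 21 overlapped. Depth was limiting in the treated cells: 28 of the 35 tested features had at least 10 counts in both vehicle libraries, but only 12 in both inhibitor libraries.

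Both classes took part. Of 19 C/D features tested, 13 fell (median -1.61), and of 16 H/ACA features, 12 fell (median -1.94). By host, 17 of 27 features in protein-coding hosts fell (median -1.43), including 10 of 12 in ribosomal protein genes (median -2.17). All 6 tested features in noncoding hosts fell (median -2.50), as did both without a host. Features on a same-strand exon (12 of 17, median -1.10) and those without such an overlap (13 of 18, median -1.96) both fell. The difference between these subgroups was not tested. Among the other 47 tested snoRNA rows, 32 fell (median -1.52).

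Several C/D features of high level fell several-fold. Snord104, a guide for large-subunit rRNA methylation, was at 2.54 and 2.21 CPM in wild-type vehicle libraries and at 0.342 and 0.448 CPM with the inhibitor. Both inhibitor libraries lay far below both vehicle libraries, a 6-fold difference of means (log2 fold change -2.60, SE 0.29, edgeR adjusted p = 1.4e-07). Snord72, in the ribosomal protein gene Rpl37, went from 1.64 and 1.06 CPM to 0.114 and 0.285 CPM (-2.82, SE 0.45, edgeR adjusted p = 2.8e-05). Rpl37 itself was at 0.08 (log2 fold change, edgeR adjusted p = 0.218). Snord87, in the noncoding Snhg6, went from 2.57 and 1.59 CPM to 0.171 and 0.612 CPM (-2.52, SE 0.40, edgeR adjusted p = 2.5e-05). Snord69, in the nucleolar GTPase gene Gnl3, fell less, from 0.964 and 1.68 CPM to 0.656 and 0.693 CPM (-0.99, SE 0.33, edgeR adjusted p = 0.0185). Its call rests on the vehicle library of replicate 2, without which the value was -0.51 and the call was lost. It was also not called without either inhibitor library (-0.94 and -1.01).

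Snord49a and Snord49b both lie in the noncoding gene 2410006H16Rik, and the host and the snoRNAs moved in opposite directions. The host was at 25.8 and 22.8 CPM in wild-type vehicle libraries and 35.1 and 39.8 CPM with the inhibitor (log2 fold change 0.62, SE 0.07, edgeR adjusted p = 4.9e-07). Snord49a went the other way, from 2 and 1.27 CPM to 0.171 and 0.448 CPM (-2.48, SE 0.39, edgeR adjusted p = 2.1e-05). Snord49b went from 0.75 and 0.466 CPM to 0.257 and 0.204 CPM (-1.34, SE 0.49, edgeR adjusted p = 0.0318), a call lost without vehicle replicate 1 (-0.97), without inhibitor replicate 1 (-1.53) and without inhibitor replicate 2 (-1.20). Snord65, the third snoRNA of this host in the tables, had too few counts for the test in experiment 1 and stood at 0.25 and 0.342 CPM with vehicle and 0.2 and 0.0408 CPM with the inhibitor.

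Among H/ACA features the steepest fall was that of Snora16a, in the noncoding host Snhg12. It had 1.89 and 1.49 CPM in wild-type vehicle libraries and 0.114 and 0.0408 CPM with the inhibitor, which left 4 counts and 1 count (log2 fold change -4.27, SE 0.54, edgeR adjusted p = 1.1e-06). The groups were far apart, but the size of the change rests on those 5 counts. Snhg12 rose (0.30, SE 0.07, edgeR adjusted p = 0.00169). Snora16a overlaps an exon of this host, so the Snora16a value is less certain. Snora33, in the ribosomal protein gene Rps12, went from 1.36 and 1.18 CPM to 0.171 and 0.204 CPM (-2.75, SE 0.43, edgeR adjusted p = 1.8e-05). Snora24, which guides pseudouridylation of small-subunit rRNA and lies in Snhg8, went from 2.96 and 2.3 CPM to 0.485 and 0.612 CPM (-2.27, SE 0.30, edgeR adjusted p = 2.2e-06). Snora57, with no containing gene in the annotation, was at -2.38 (SE 0.39), Snora41 at -1.86 (SE 0.34) and Snora74a at -2.67 (SE 0.68), all called. Without inhibitor replicate 1 the Snora74a value was -2.40 and its call was lost.

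Other H/ACA features fell less. Snora28, in the translation factor gene Eif5, went from 2.18 and 1.99 CPM to 1.03 and 0.897 CPM (log2 fold change -1.10, SE 0.26, edgeR adjusted p = 0.00167) while Eif5 rose (0.38, SE 0.05). Snora68 was at -1.42 (SE 0.41, edgeR adjusted p = 0.00835), and at -0.94 without inhibitor replicate 1, where it was not called. Snora7a, in Rpl32, went from 1.89 and 1.71 CPM to 1.23 and 0.856 CPM (-0.75, SE 0.26, edgeR adjusted p = 0.0259). That call was lost without vehicle replicate 1 (-0.67), vehicle replicate 2 (-0.82) or inhibitor replicate 2 (-0.54). Features of similar vehicle level thus moved by very different amounts. Snora28 and Snora7a overlap exons of their hosts, so their values are less certain.

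A few features did not pass the test. Snord55 was at 1.86 and 1.93 CPM with vehicle and 1.37 and 1.67 CPM with the inhibitor (log2 fold change -0.34, SE 0.23, edgeR adjusted p = 0.26). Snord64 was at -0.56 (SE 0.33, edgeR adjusted p = 0.191) and Snord107 at 0.10 (SE 0.56, edgeR adjusted p = 0.912), both in the gene model Gm38393. Snord17, chosen here after its value was seen as the longest feature, was at 0.83 (SE 0.41, edgeR adjusted p = 0.12). A p above the threshold does not show that these levels were the same.

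In TKO cells, whose vehicle and inhibitor libraries are all different from the wild-type ones, the inhibitor lowered many of the same features. Here 23 of 35 were lower and 0 higher (edgeR quasi-likelihood test), where 19.6% of all genes tested were called lower and 19.9% higher. At an unadjusted p under 0.05 there were 25 lower and 0 higher, and DESeq2 called 16 and 0. The median log2 fold change was -1.19, with a range of -2.71 to 0.28, against 0.00 over all genes. Fewer features were lower without TKO inhibitor replicate 1, where the filter kept 42. With the filter set on experiment 2, 23 of 40 were lower and 0 higher, against 19% and 18.8% of all genes. Among the 66 counted features, 44 had both inhibitor libraries below both vehicle libraries (25.8% of all genes with a count), 3 above (29.6%) and 19 overlapped. C/D features fell in 14 of 19 cases (median -1.19) and H/ACA features in 9 of 16 (median -1.26). All 6 in noncoding hosts fell (median -2.24), against 15 of 27 in protein-coding hosts (median -0.98). Of the other snoRNA rows, 26 of 47 fell (median -1.09).

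Of the 35 features tested in each genotype, 21 fell in both. This is 84% of those that fell in wild-type and 91.3% of those that fell in TKO cells. The matching shares over all genes are not given here, so the overlap cannot be judged against them. Snora31, Snora75, Snora7a and Snord73a were called in wild-type cells alone, and Snord64 and Snord107 in TKO cells alone, where a call in one genotype does not show a difference between them. Snord104 was at 3.2 and 3.58 CPM in TKO vehicle libraries and 1.12 and 1.15 CPM with the inhibitor (log2 fold change -1.57, SE 0.21, edgeR adjusted p = 2.1e-06). Snord49a went from 1.78 and 1.67 CPM to 0.356 and 0.342 CPM (-2.29, SE 0.36), and Snord49b from 0.841 and 0.569 CPM to 0.137 and 0.124 CPM (-2.39, SE 0.51), with their host again higher (0.84, SE 0.07). Snora24 was at -1.84 (SE 0.33), Snora57 at -2.23 (SE 0.40), Snora41 at -1.72 (SE 0.41), Snora74a at -2.71 (SE 0.47), Snord87 at -2.19 (SE 0.42), Snord72 at -1.96 (SE 0.39), Snora16a at -1.97 (SE 0.45) and Snora28 at -1.17 (SE 0.23), all called. In each of these the TKO inhibitor libraries lay below both TKO vehicle libraries.

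Some smaller changes in TKO cells lost their call when 1 library was left out, which leaves 1 library in that group. The value itself often moved little. Snora33 fell (log2 fold change -1.57, SE 0.40), but was at -1.27 and not called without TKO vehicle replicate 1. Snora68 fell (-1.05, SE 0.37) but was at -0.47 without vehicle replicate 2 and -0.73 without inhibitor replicate 1. Snord69 fell (-0.81, SE 0.29) and lost its call without vehicle replicate 1 (-0.81), vehicle replicate 2 (-0.85) or inhibitor replicate 2 (-0.63). Snord64 went from 1.38 and 1.51 CPM to 0.657 and 0.808 CPM (-0.98, SE 0.28, edgeR adjusted p = 0.00778), lost without vehicle replicate 2 (-0.94) or inhibitor replicate 1 (-0.86). Snord107 went from 1.04 and 0.971 CPM to 0.52 and 0.497 CPM (-0.98, SE 0.35, edgeR adjusted p = 0.0302), lost without any of the 4 TKO libraries (-0.94 to -1.05). Snord55 was at 1.41 and 1.54 CPM with vehicle and 1.78 and 1.80 CPM with the inhibitor (0.28, SE 0.22, edgeR adjusted p = 0.349).

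**Figure D2:**
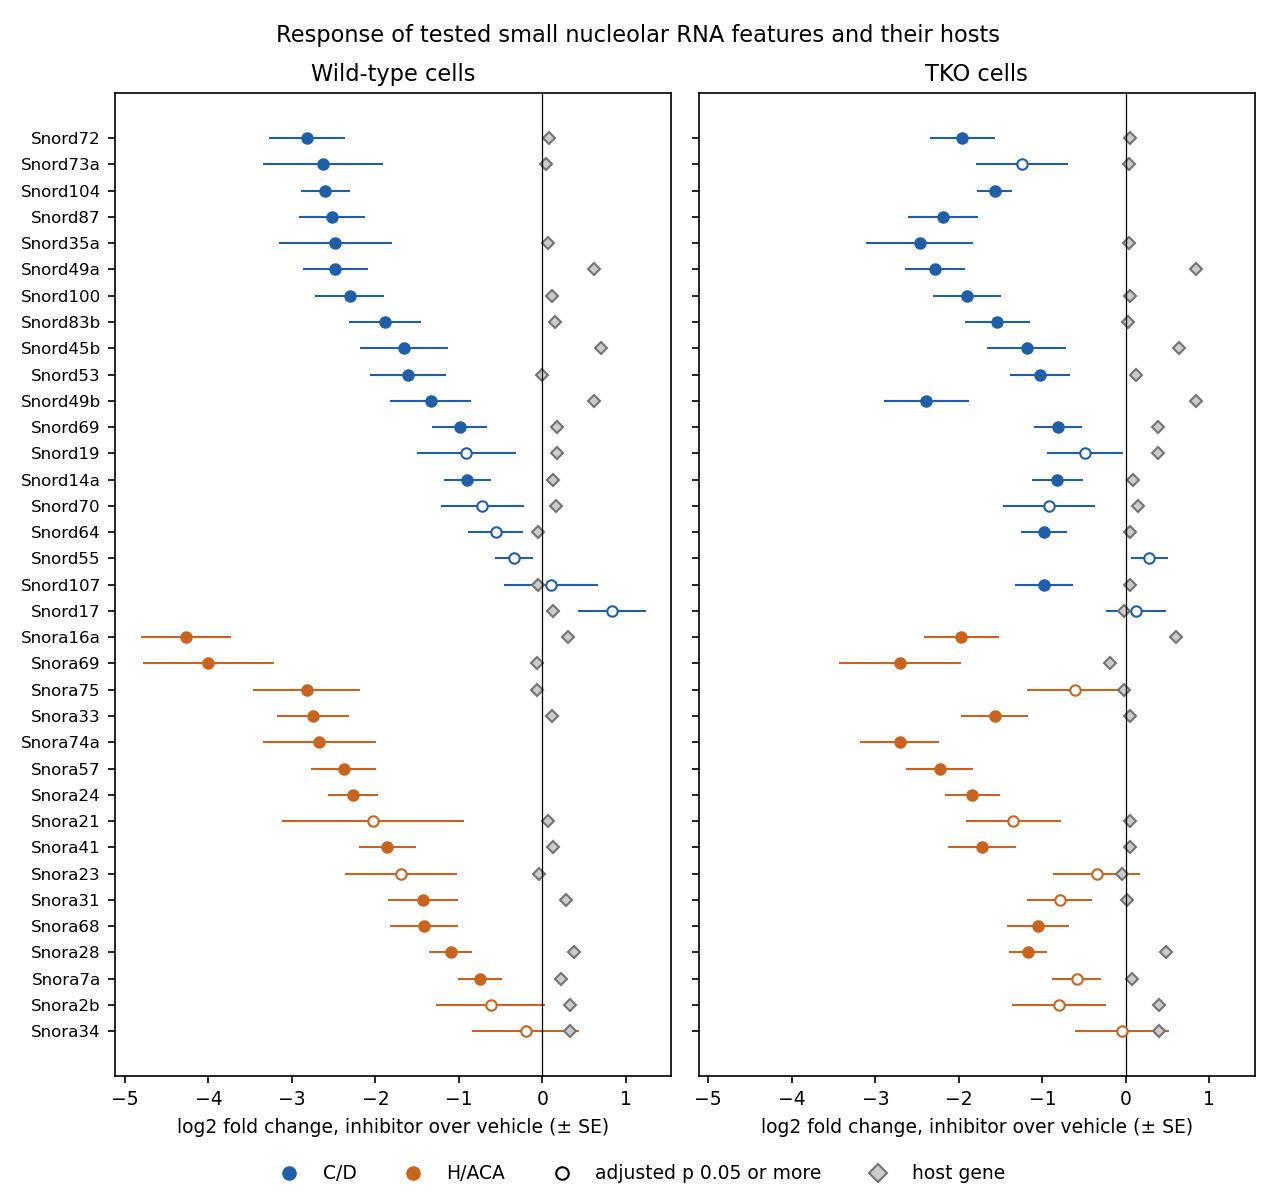
Log2 fold change of the inhibitor over vehicle (horizontal axis, points with SE from the edgeR fit) for the 35 tested snoRNA features (vertical axis) in wild-type (left) and TKO cells (right); grey diamonds are tested host genes, where drawn. Filled points passed the test: 25 in wild-type and 23 in TKO cells, all below 0, while the hosts drawn lie between -0.19 and 0.84.

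The difference between genotypes in the response to the inhibitor was tested as an interaction. None of 35 features was called in either direction by edgeR, against 1.77% of all genes higher and 2.12% lower. At an unadjusted edgeR p under 0.05, Snora75, Snora16a and Snord104 had an estimated weaker fall in TKO cells (3 features) and 0 a stronger one. The share of all genes at that unadjusted threshold is not given here, so this count cannot be read as a genotype difference. DESeq2 called 0, with 24 features left without an adjusted p. The interaction was 2.30 for Snora16a (SE 0.84, edgeR adjusted p = 0.128) and 1.03 for Snord104 (SE 0.38, edgeR adjusted p = 0.138). The median over the 35 was 0.35, with 27 above 0 and 8 below, against -0.01 over all genes. Leaving out 1 library moved this median between 0.05 (without TKO inhibitor replicate 2) and 0.69 (without wild-type inhibitor replicate 2).

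Each feature was also tested relative to its own host, with the host's level entered as an offset in the edgeR fit, an alternative added after the data were seen. This could be done for 30 features in 25 hosts. All had passed the filter of experiment 1, so a feature kept for its vehicle level alone again had to be lower with the inhibitor. The host fit was not repeated with the filter set on experiment 2. Relative to the host, 20 features were lower and 0 higher in wild-type cells (median -1.71), where 18.7% of all genes in that fit were lower. Of those 20, 11 lie in a host that rose and 9 in a host that was not called. In TKO cells 18 were lower and 0 higher (median -1.19), against 19.6% of all genes, with 8 in hosts that rose, 1 in a host that fell and 9 in hosts not called. Snord49a stood at -3.09 (SE 0.37) and -3.12 (SE 0.33) relative to 2410006H16Rik in wild-type and TKO cells. Snora28 stood at -1.48 (SE 0.25) and -1.65 (SE 0.23) relative to Eif5, an exon of which it overlaps, so these values are less certain.

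The mRNAs for proteins that build snoRNA particles moved by smaller amounts than the snoRNA features. Protein levels were not measured. Of the 4 C/D core protein genes, 2 rose in wild-type cells, Nop56 (log2 fold change 0.27, SE 0.05) and Nop58 (0.16, SE 0.05). In TKO cells 3 rose, Nop56 by 0.50 (SE 0.05). Both Nop56 and Nop58 are themselves snoRNA hosts. Of the 4 H/ACA core protein genes, Gar1 rose (0.25 in wild-type, 0.37 in TKO cells) and Nhp2 was not called. Nop10 (-0.40 and -0.27) and Dkc1 (-0.16 and -0.14) fell. Of 13 assembly factors, 5 rose and 2 fell in wild-type cells and 3 rose and 1 fell in TKO cells. Over all genes tested, 19% rose and 18.7% fell in wild-type cells, and 19.9% rose and 19.6% fell in TKO cells. Of 21 genes for trimming and decay of snoRNA ends, mainly exosome subunits, 3 rose and 9 fell in wild-type cells (median -0.13), and 2 rose and 10 fell in TKO cells (median -0.10). Among those that fell, Toe1, a deadenylase that trims small nuclear RNA ends, was at -0.46 and -0.39. The debranching enzyme Dbr1, which opens intron lariats, was at -0.21 and -0.33. Those that rose were Exosc10 (0.27 and 0.23) and Zcchc7 (0.47 and 0.31), with Zcchc8 (0.24) in wild-type cells. Ribosomal protein genes, hosts to many snoRNAs, rose in 29 and fell in 5 of 85 cases in wild-type cells. In TKO cells 11 rose and 14 fell. Noncoding snoRNA hosts of a fixed list moved both ways: of 10 tested, 5 rose and 5 fell in each genotype. Their values ran from -1.13 to 1.05 in wild-type and from -0.72 to 1.22 in TKO cells.

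Other short features were examined in the same fits. Of 16 tested microRNA hairpins, 9 fell and 0 rose in each genotype (edgeR quasi-likelihood test). Their median log2 fold changes were -1.07 in wild-type and -1.16 in TKO cells. Over all genes tested, 18.7% fell and 19% rose in wild-type cells, and 19.6% fell and 19.9% rose in TKO cells. Of 35 tested rows under 200 bases that are not snoRNA, 9 fell and 6 rose in wild-type cells (median -0.15), and 12 fell and 5 rose in TKO cells (median -0.42). Genes of 500 bases or more had a median of 0.01 and 0.00. The part of transcript length in the snoRNA values was not tested.

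The loss of the DNA methyltransferases was examined in 2 comparisons that share no library, TKO against wild type with vehicle and without treatment. With vehicle, 5 of 35 features were higher and 2 lower in TKO cells (edgeR quasi-likelihood test), while 34.8% of all genes were called higher and 34.2% lower. Untreated, 1 of 40 was higher and 5 lower, against 25.9% and 24.3%. The shares of snoRNA features called were thus below those of all genes. The features had few counts, and genes of like count were not compared, so a weaker response of snoRNAs is not shown. The median was 0.06 with vehicle (0.01 over all genes) and -0.26 untreated (0.00 over all genes). Among counted features, 14 of 66 had both TKO libraries above both wild-type libraries with vehicle and 15 had both below, against 33.5% and 27.3% of all genes with a count. Untreated, 11 of 67 were above and 18 below, against 30.3% and 27.1%. Under library size scaling alone the median of all genes moved from 0.01 to 0.16 with vehicle, the share of called genes that were higher went from 50.5% to 63.5%, and the features were called 6 higher and 1 lower. DESeq2 called 1 higher and 0 lower with vehicle, and 0 and 4 untreated. With vehicle, 1 feature was higher without wild-type replicate 2 or TKO replicate 2, and 3 were without wild-type replicate 1 or TKO replicate 1; 1 was lower without wild-type replicate 1 or TKO replicate 2. Untreated, 0 were higher without any 1 of the wild-type or TKO libraries, and 2 without either Tet1-KO TKO library.

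Of 35 features tested in both comparisons, Snord107 was the only one called higher in TKO cells in both. With vehicle it was at 0.25 and 0.218 CPM in wild-type and 1.04 and 0.971 CPM in TKO libraries (log2 fold change 2.09, SE 0.42, edgeR adjusted p = 0.000121). Untreated it was at 0.882 and 0.794 CPM in wild-type and 1.71 and 1.84 CPM in TKO libraries (1.07, SE 0.36, edgeR adjusted p = 0.0253), a call lost without any of these 4 libraries (1.00 to 1.14). Snord107 and Snord64 are orphan C/D snoRNAs, with no known rRNA target, from the imprinted region that matches the human Prader-Willi locus and is expressed from the paternal allele. Both overlap exons of the gene model Gm38393, so their values are less certain. Snord64 was at 0.929 and 0.902 CPM in wild-type and 1.38 and 1.51 CPM in TKO vehicle libraries (0.66, SE 0.28, edgeR adjusted p = 0.0401). That call was lost without any 1 of the vehicle libraries (0.60 to 0.72) or of the wild-type inhibitor libraries (0.63). Untreated, Snord64 was at 1.41 and 2.29 CPM in wild-type and 2.81 and 3.55 CPM in TKO libraries (0.79, SE 0.36, edgeR adjusted p = 0.0857).

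Gm38393 rose in both comparisons, from 127 and 121 CPM to 188 and 191 CPM with vehicle (log2 fold change 0.61, SE 0.04) and from 92 and 81.8 CPM to 213 and 229 CPM untreated (1.35, SE 0.10). Relative to this host Snord107 was higher with vehicle (1.49, SE 0.43, edgeR adjusted p = 0.0039) but not untreated (-0.27, SE 0.37, edgeR adjusted p = 0.58). Snord64 relative to the host was at 0.04 (SE 0.28) and -0.57 (SE 0.38).

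Snora24 and Snora41 were lower in TKO cells in both comparisons. Snora24 with vehicle was at 2.96 and 2.3 CPM in wild-type and 1.75 and 1.51 CPM in TKO libraries (log2 fold change -0.68, SE 0.25, edgeR adjusted p = 0.0162), lost without wild-type vehicle replicate 1 (-0.52) or TKO vehicle replicate 2 (-0.58). Untreated it was at 3.53 and 5.96 CPM in wild-type and 1.85 and 2.97 CPM in TKO libraries (-0.97, SE 0.30, edgeR adjusted p = 0.0175), lost without wild-type replicate 2 (-0.56) or TKO replicate 1 (-0.67). Snora41 with vehicle was at 1.79 and 1.55 CPM in wild-type and 0.875 and 0.87 CPM in TKO libraries (-0.93, SE 0.30, edgeR adjusted p = 0.00794). Untreated it was at 1.91 and 3.66 CPM against 1.45 and 1.61 CPM (-0.85, SE 0.32, edgeR adjusted p = 0.0422), lost without wild-type replicate 2 (-0.32) or either TKO replicate (-0.77 and -0.92). Its host Eef1b2 was lower too, at -0.53 (SE 0.05) with vehicle and -0.40 (SE 0.10) untreated. Relative to Eef1b2, Snora41 was at -0.40 (SE 0.30, edgeR adjusted p = 0.239) and -0.43 (SE 0.30, edgeR adjusted p = 0.252).

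Other genotype differences were called in 1 comparison. With vehicle Snora74a (log2 fold change 1.11, SE 0.39), Snora21 (1.67, SE 0.62) and Snord104 (0.52, SE 0.19) were higher in TKO cells. Each lost its call when 1 library was left out: Snora74a without TKO vehicle replicate 2 (0.72) or either wild-type vehicle library (1.03 and 1.15), Snora21 without wild-type vehicle replicate 2 (0.93) or either TKO vehicle library (1.62 and 1.73), and Snord104 without wild-type vehicle replicate 2 (0.39) or TKO vehicle replicate 2 (0.44). Untreated they stood at 0.39, 0.13 and -0.29, none called. Untreated Snord87 went from 3.46 and 4.32 CPM in wild-type to 1.62 and 1.84 CPM in TKO libraries (-1.17, SE 0.25, edgeR adjusted p = 0.00196), against -0.48 (SE 0.30, edgeR adjusted p = 0.168) with vehicle. Snora57 untreated was at -1.11 (SE 0.33, edgeR adjusted p = 0.015), lost without wild-type replicate 2 (-0.73) or TKO replicate 1 (-0.70). Snord89 untreated was at 0.918 and 1.76 CPM in wild-type and 0.455 and 0.42 CPM in TKO libraries (-1.59, SE 0.42, edgeR adjusted p = 0.00826), and at -1.06 and not called without wild-type replicate 2. Without that library 1 feature in all was lower, and without TKO untreated replicate 1, 2 were.

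**Figure D3:**
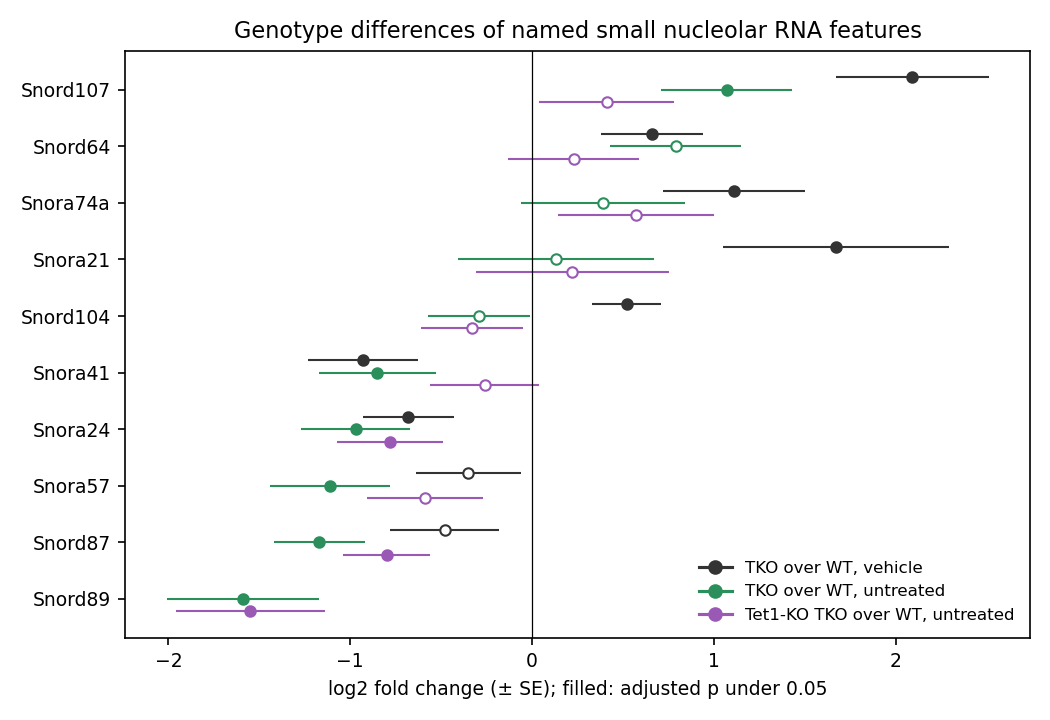
Log2 fold change over wild type (horizontal axis, points with SE from the edgeR fit) of 10 snoRNA features (vertical axis) in TKO cells with vehicle, TKO cells untreated and Tet1-KO TKO cells untreated; filled points passed the test. Snord107 stands above 0 and Snora24 below 0 in all 3, while Snord104 changes side; the 2 untreated comparisons share their wild-type libraries, and Snord89 was tested untreated only.

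Removing Tet1 on top of the methyltransferases changed no feature past the threshold. Of 40 tested, 0 were higher and 0 lower in Tet1-KO TKO than in TKO cells by edgeR, where 11.6% of all genes were called higher and 10.4% lower. At an unadjusted p under 0.05 there were 2 higher, Snora7a (log2 fold change 0.73, SE 0.28) and Snord72 (0.69, SE 0.28), and 1 lower, Snord17 (-0.86, SE 0.39). DESeq2 called 0. Among 67 counted features, 13 had both Tet1-KO TKO libraries above both TKO libraries (23.7% of all genes with a count) and 9 below (26.2%). The values ran from -0.86 to 0.73, with a median of 0.15. Under library size scaling alone the share of called genes that were higher went from 52.9% to 40.6%, and no feature was called. Without Tet1-KO TKO replicate 2, 1 was higher and 1 lower. Snora7a was at 1.02 and 1.1 CPM in TKO and 1.61 and 1.91 CPM in Tet1-KO TKO libraries, which do not overlap. Snord107 was at 1.71 and 1.84 CPM in TKO and 0.779 and 1.45 CPM in Tet1-KO TKO libraries (-0.66, SE 0.33, edgeR adjusted p = 0.171).

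Against the same wild-type libraries, 3 features were lower and 0 higher in Tet1-KO TKO cells (edgeR), where 24.4% of all genes were lower and 26.3% higher. None was higher at an unadjusted p under 0.05, and DESeq2 called 2 lower and 0 higher. Of 67 counted features, 8 had both Tet1-KO TKO libraries above both wild-type libraries (28.8% of all genes with a count) and 13 below (26.6%). Snord89 was at 0.483 and 0.417 CPM in Tet1-KO TKO libraries (log2 fold change -1.55, SE 0.41, edgeR adjusted p = 0.00794), Snord87 at 2.39 and 2.06 CPM (-0.80, SE 0.24, edgeR adjusted p = 0.014) and Snora24 at 2.95 and 2.55 CPM (-0.78, SE 0.29, edgeR adjusted p = 0.0438). All 3 calls were lost without wild-type replicate 2, where the values were -1.02, -0.64 and -0.36. Without Tet1-KO TKO replicate 2, 1 call was left, Snord87 standing at -0.69 and Snora24 at -0.67. Snora24 was also not called without Tet1-KO TKO replicate 1 (-0.88). This comparison shares its wild-type libraries with TKO against wild type, so their likeness is not independent evidence.

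**Figure D4:**
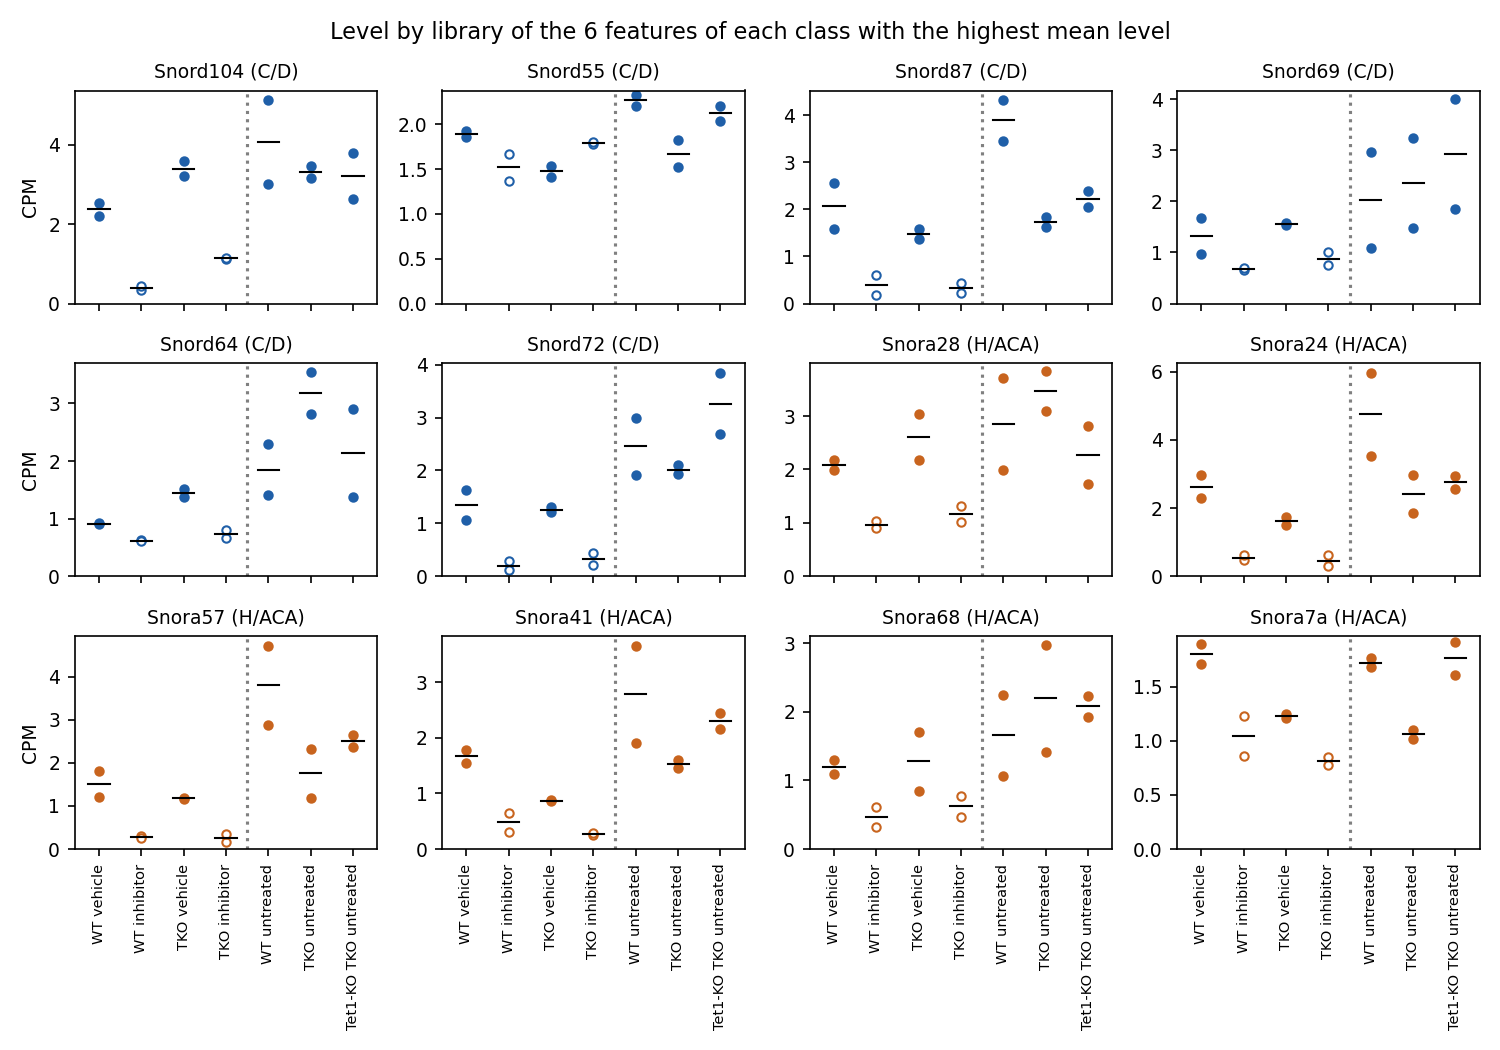
Level in CPM (vertical axes, each from 0) of the 6 C/D and 6 H/ACA features with the highest mean level, by group (horizontal axis); points are libraries, open with the inhibitor, lines are means of 2, and the dotted line separates the experiments. Open points lie below the vehicle points of the same genotype except for Snord55 in TKO cells.

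These levels show how far untreated replicates could spread. Snord69 was at 1.09 and 2.96 CPM in the untreated wild-type libraries and at 1.85 and 4 CPM in the Tet1-KO TKO libraries, so a difference between genotypes could not be seen beyond that spread. Snord55 lay between 1.37 and 1.93 CPM in the libraries of experiment 1 and between 1.52 and 2.33 CPM in those of experiment 2.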

How the data were processed

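Poly(A)-selected RNA of 14 libraries was sequenced on an Illumina instrument, per the labels' protocols. The authors deposited 2 tables of raw counts per Ensembl gene and library, 1 for each experiment, with no normalization. The tools and build named per the submitters' processing notes are HTSeq 0.5.3p9, TopHat2 2.0.2, Bowtie 0.12.8 and mm9. The sources used here do not give the strand setting or the annotation release. Symbols (32919 IDs matched), hosts, lengths and sequences came from GENCODE M21 (GRCm38), so no coordinates are given.

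Each experiment was fitted in edgeR 4.0.16 (R 4.3.3, limma 3.58.1) with all its groups, TMM factors and a quasi-likelihood F-test, two-sided, after filterByExpr (minimum count 10, minimum total 15), which kept 16711 and 16303 genes and 35 and 40 of the 111 features. Residual degrees of freedom were 4 and 3, and biological coefficients of variation 3.73% and 10.5%. The threshold was an adjusted p of 0.05, with Benjamini-Hochberg adjustment across the genes tested in each comparison. Shares of all genes called are given at this threshold alone. Counts of features at an unadjusted p therefore have no such share beside them. The SE is the log2 fold change divided by the root of the F statistic. The host fit used hosts with at least 50 counts in every library. Errors on levels can be read from the 2 libraries given. Limits on counts of 0 cover counting error alone: the reads carry no molecular identifiers and need not be independent molecules.

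There were 7 comparisons. Alternatives were DESeq2 1.42.0, other scalings, no filter, only the groups compared, a replicate block, each library left out, and the filter of the other experiment. The scripts were tested on simulated data. Named features were the 6 of each class with the highest mean level, up to 5 called features per direction and comparison with the smallest p and no overlap between groups, those at imprinted hosts, and those of a host with 3 or more features. Snord17, Snora31, Snora75, Snord73a and the zero-count examples were named after their values were seen. The features and gene lists were chosen with earlier results of these data known. Some host genes and sequences are not reported here.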

Additional observations from a re-analysis of the deposited data

Results flagged for a closer look

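Snord55 was the 1 feature whose inhibitor libraries both lay below the vehicle libraries in wild-type cells and both above them in TKO cells. The difference between the genotypes was 0.61 on the log2 scale (SE 0.32, edgeR adjusted p = 0.318), which did not pass the threshold, and neither genotype's own change was called.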

How the results depend on the processing

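Counts of called features were recomputed in 196 alternatives, of which 166 stayed within 1.5 times the reported count and 30 did not. Of 685 alternatives for single named features, 609 kept the call, 76 lost it and none turned the direction. With vehicle, TKO against wild type gave 1 higher and 0 lower under DESeq2, 1 lower under library size scaling and 4 lower with no filter on low counts. Leaving out single libraries gave 1 to 5 higher and 1 to 3 lower. The inhibitor lowered 17 to 28 features in wild-type and 14 to 22 in TKO cells when single libraries were left out. The interaction gave 1 higher with no filter. Untreated TKO against wild type gave 0 higher under DESeq2, 2 with no filter and 2 with only the groups compared. Leaving out single libraries gave 0 to 2 higher and 1 to 6 lower. Tet1-KO TKO against TKO gave 1 higher with no filter, and 0 to 1 higher and 0 to 1 lower without single libraries; against wild type, 0 to 4 were lower. The cause of these changes was not tested. The filter of the other experiment was added after the data were seen. Few counts per feature limit all of these values.

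With a replicate block, untreated TKO against wild type gave 2 higher and 7 lower, and Tet1-KO TKO against TKO gave 1 lower. The other counts stayed within 1.5 times the reported ones. Correlations of same-numbered deviations were -0.0345 to 0.0384 in experiment 1 and 0.111 to 0.236 in experiment 2. The labels do not say what a number shares, and with 2 numbers a group a shared effect in experiment 2 cannot be settled.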
